A study of Mus musculus with 6 samples.

Results

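Lipid uptake and peroxisome proliferator-activated receptor (PPAR) target genes were examined in hearts that carry a substitution in cardiac troponin I, the inhibitory subunit of the troponin complex of heart muscle. The set was given by name and holds 9 of the 44792 gene symbols in the count table: Lpl, Cd36, Fabp3, Angptl4, Plin5, Pdk4, Ucp3, Acot1 and Acot2. Hearts came from 6 C57BL/6 mice, all 3 months old and untreated, of which 3 were wild type and 3 carried the cTnI R193H mutation, called R193H here. Each heart gave 1 RNA library, with totals of 14736067 to 21852210 read counts. How the substitution was introduced, its zygosity, the sex of the mice and their feeding state at collection are not stated in the labels. All 9 genes passed the filter on low counts, which left 14370 genes for testing.

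The adult heart draws most of its energy from fatty acids. Lipoprotein lipase releases them from circulating triglyceride at the capillary wall, the scavenger receptor CD36 helps them enter the cell, and a small binding protein carries them through the cytosol. Fatty acids activate PPARs, nuclear receptors that pair with retinoid X receptors (RXR) and bind direct repeats of the half-site AGGTCA, and the genes they switch on limit glucose oxidation, guard lipid droplets and handle fatty acids inside mitochondria. Several of these genes also respond to fasting, when fatty acids in blood rise.

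Of the 9 genes, 8 had a higher log2 level in R193H hearts, against 49.9% of all genes tested, and 1, Lpl, a lower one, and none passed the threshold. The clearest separations were those of Plin5 and Acot2, with means 1.24 times the wild type level for each, and for both the lowest R193H heart was above the highest wild type heart. Ucp3 had the largest ratio of means, 1.42, but its groups overlapped. The edgeR test called 0 of the 9 genes at an adjusted p of 0.05, where it called 0.00696% of all genes tested (1 of 14370, the mitochondrial transfer RNA gene TrnL1). At an unadjusted p under 0.05, 2 of the 9 (Plin5 and Acot2, both higher) passed, against 5.73% of all genes, of which 3.22% were higher and 2.51% lower. DESeq2 called 0 of the 9 after adjustment, where it called 0.292% of all genes. Before adjustment Ucp3 joined Plin5 and Acot2, and the share of all genes at an unadjusted DESeq2 p under 0.05 was not taken. In CPM (counts relative to the library total, with totals scaled by the trimmed mean of M values, TMM), 3 of the 9 (Plin5, Acot2 and Fabp3) had groups that did not overlap with R193H higher, against 6.02% of all genes. The count of 2 became 0 when wild type replicate 1 was omitted and 1 when R193H replicate 1 or replicate 2 was. The count of 3 became 5 when wild type replicate 2 was omitted. Groups of fewer hearts separate more easily, and the shares over all genes were taken with all 6 hearts only. The 9 genes were chosen with earlier results of these hearts known, so these shares are a description.

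**Figure D1:**
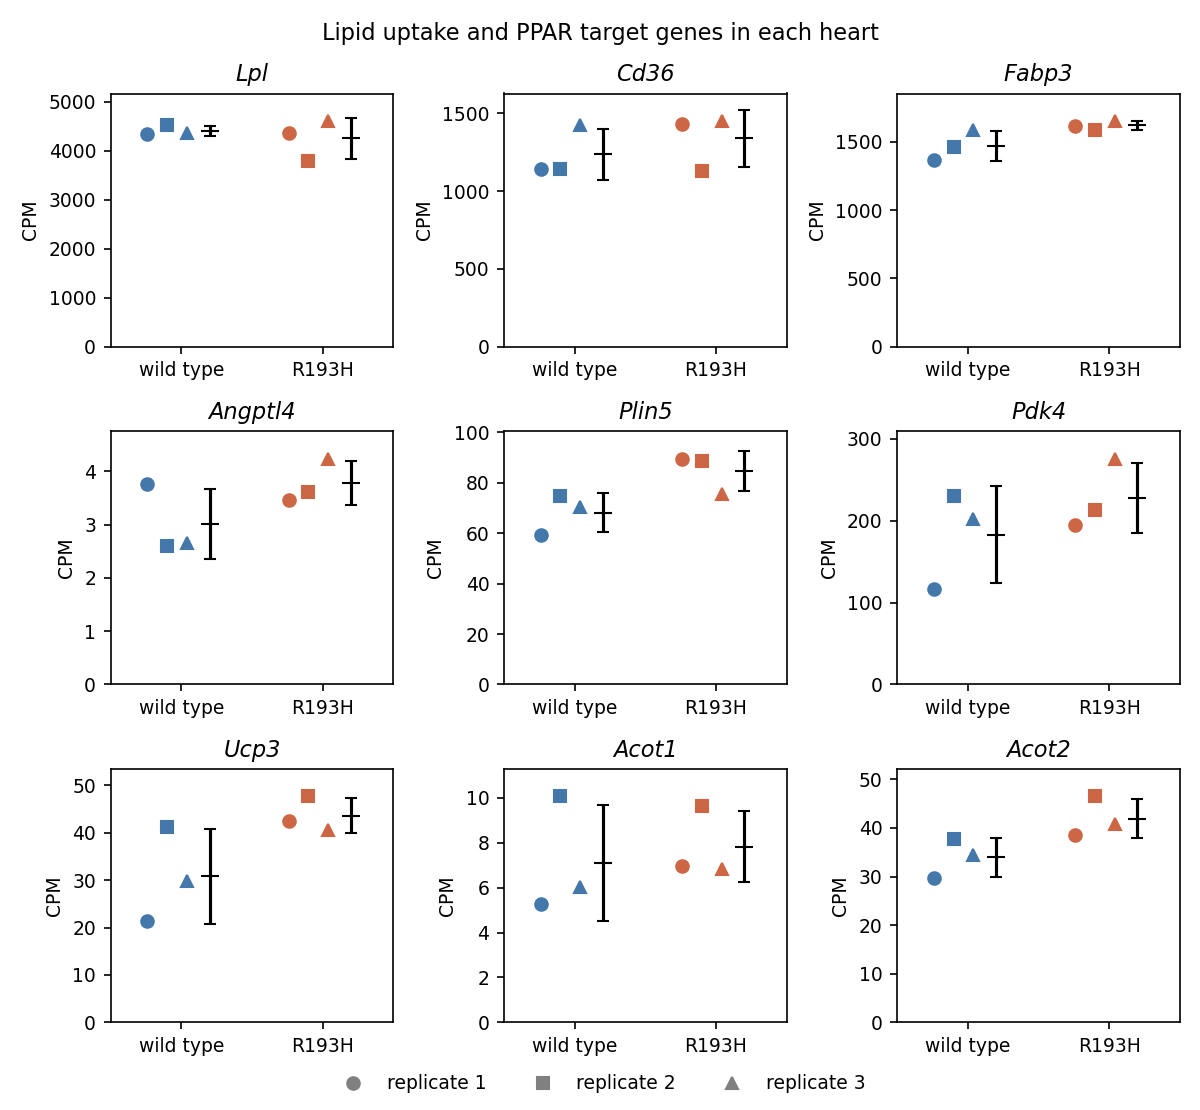
CPM of each of the 9 genes (vertical axes from 0) in 3 wild type hearts (blue) and 3 R193H hearts (orange), with marker shape for the replicate number and, at the right of each group, the mean and SD. Plin5, Acot2 and Fabp3 show groups that do not overlap, and wild type replicate 1 is the lowest heart for Pdk4, Ucp3, Acot1, Acot2, Plin5 and Fabp3.

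Hearts are mixtures of cells, and fewer cells of a type cannot be told apart from less RNA per cell. The cardiomyocyte markers summed to 63075 to 65276 CPM in wild type hearts against 56594 to 62648 CPM with R193H, and 11 of their 13 means were lower in R193H. Capillary endothelial markers, from the cells that hold lipoprotein lipase at the vessel wall and also express Cd36, summed to 2002 to 2415 CPM and 2099 to 2345 CPM, with 11 of 13 means higher. All 11 macrophage markers had higher means (summed CPM of 363 to 428 and 444 to 638), and macrophages also express Lpl and Cd36. Of these 11, 9 had an unadjusted edgeR p under 0.05 and 6 had groups that did not overlap. Fibroblast markers had 8 of 9 higher means (3292 to 4135 and 3193 to 4891), with 0 at that p and 0 without overlap. Their median sum was lower with R193H, at 3243 against 3390. Every fibroblast marker was highest in R193H replicate 2, where Col3a1 reached 538 CPM, against 240 and 229 in R193H replicates 1 and 3. The erythroid markers ranged from 274 to 3136 CPM in wild type hearts against 496 to 650 CPM with R193H, with 0 of 6 means higher. The part of these cell markers in the results below was not tested.

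Contamination by fat or skeletal muscle bears on several of the 9 genes, which those tissues also express. White adipocyte markers summed to 160 to 194 CPM in wild type hearts against 157 to 192 CPM with R193H, with 2 of 8 tested means higher, and Adipor2 and Lipe, which are not particular to fat, made up most of that sum. Adipoq, which encodes the fat cell hormone adiponectin, measured 1.21, 4.06 and 1.002 CPM in wild type replicates 1, 2 and 3 and 0.4496, 3.20 and 1.07 CPM in R193H replicates 1, 2 and 3. Cfd, the adipocyte protease adipsin, was likewise highest in wild type replicate 2 (16.1 CPM) and R193H replicate 2 (13.0 CPM), against 1.89 to 3.69 CPM in the other 4 hearts. The brown fat list had 4 of its 8 markers tested (182.6 to 206.9 CPM in wild type hearts against 146 to 191 CPM with R193H, 1 of 4 means higher), and Elovl3 had a count of 0 in every heart. Most of that sum was Ppargc1a, which is not particular to brown fat and is read below as a coactivator. Its mean was 98.4 CPM with R193H against 126 without. Means of Cox8b (51.6 against 51.4), Cidea (17.7 against 18.1) and Dio2 (1.88 against 2.22) differed less in CPM. Of 12 skeletal muscle markers 5 were tested, at a summed 19.4 to 36.7 CPM and 17.5 to 42.1 CPM with 3 means higher, and the fast myosin gene Myh4 had a count of 0 in every heart.

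Uptake genes were by far the most abundant of the 9. Per kilobase of its longest coding transcript, Fabp3 measured 1789 ± 132 CPM (wild type) and 1970.4 ± 40.2 CPM (R193H; SD, n = 3 for both), the highest level of the 9. Lpl followed at 1069.7 ± 23.7 and 1032 ± 103 CPM per kilobase, then Cd36 at 364 ± 48.4 and 394 ± 53.9 CPM per kilobase, with no overlap between these 3 genes over the 6 hearts. Pdk4 (52.6 ± 17.1 and 65.4 ± 12.2) and Plin5 (34.3 ± 3.94 and 42.6 ± 3.92 CPM per kilobase) came next and overlapped in wild type hearts, where Pdk4 was as low as 33.5 in 1 heart and Plin5 reached 37.6. Acot2 (15.5 ± 1.81 and 19.1 ± 1.86) and Ucp3 (12.6 ± 4.10 and 17.8 ± 1.49 CPM per kilobase) overlapped in both groups. Acot1 (3.13 ± 1.14 and 3.44 ± 0.698) and Angptl4 (0.909 ± 0.197 and 1.14 ± 0.124 CPM per kilobase) were the lowest and did not overlap each other. The order of the 9 means was the same in both genotypes.

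**Figure D2:**
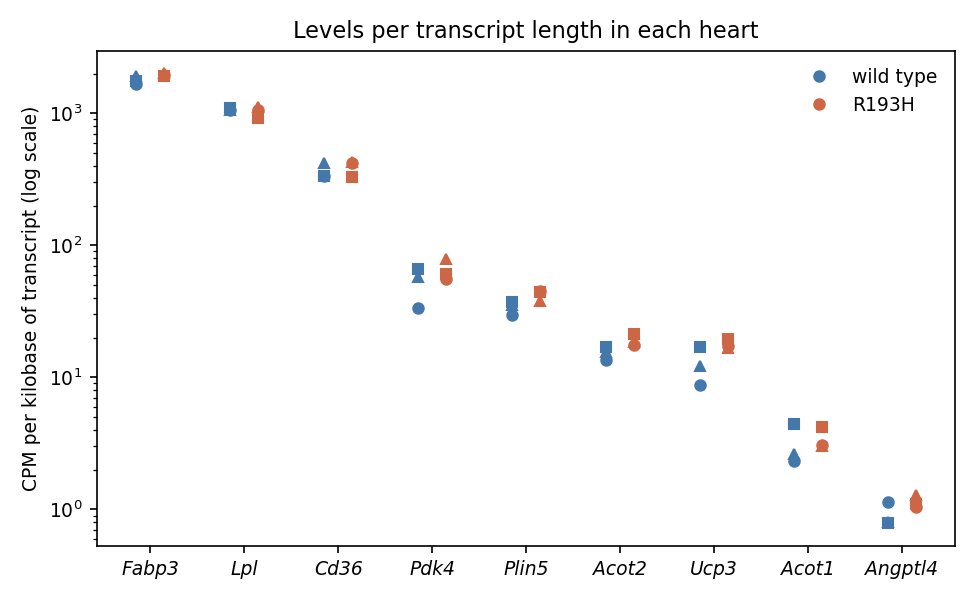
CPM per kilobase of transcript (log scale) for the 9 genes in order of their wild type mean, with wild type hearts in blue and R193H hearts in orange and marker shape for the replicate number. Levels run from about 0.909 for Angptl4 to 1789 for Fabp3 in wild type hearts, and genotype differences are small beside the differences between genes.

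Genes of fatty acid uptake differed little between genotypes. Lpl (GRCm38 chromosome 8, 68880491 to 68907448, plus strand), which encodes the lipase itself, measured 4337, 4514 and 4355 CPM in wild type replicates 1, 2 and 3 and 4349.7, 3778 and 4611 CPM in R193H replicates 1, 2 and 3. R193H hearts lay on both sides of the wild type hearts. Its log2 fold change (R193H minus wild type, from the edgeR fit) was -0.052 with an SE of 0.093 and a 95% interval of -0.26 to 0.16 (edgeR adjusted p = 0.952). The sign of Lpl turned without R193H replicate 2 (0.027) and under scaling by library totals (0.070), a scaling that moved the median of all genes to 0.13.

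Cd36 (chromosome 5, 17781690 to 17888801, minus strand), the fatty acid translocase of the cell surface, measured 1142, 1142 and 1427 CPM in wild type replicates 1, 2 and 3, against 1435, 1127 and 1453 CPM in the R193H replicates. In each genotype the hearts were split, with wild type replicate 3 beside the upper R193H hearts and R193H replicate 2 beside the lower wild type hearts. Its log2 fold change of 0.11 (SE 0.13) had an interval of -0.17 to 0.40 (edgeR adjusted p = 0.917), and it ranged from 0.058 to 0.23 with each heart left out in turn, highest without wild type replicate 3.

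Fabp3 (chromosome 4, 130308595 to 130315463, plus strand), the heart fatty acid binding protein, measured 1371, 1459.7 and 1587 CPM in wild type replicates 1, 2 and 3, against 1618, 1590.7 and 1657 CPM in the R193H replicates. Every R193H heart was above every wild type heart, with a gap between R193H replicate 2 and wild type replicate 3 that closed when the filter on low counts was dropped. Its log2 fold change was 0.14 (SE 0.085, interval -0.050 to 0.33, edgeR adjusted p = 0.898). Fabp3 varied least of the 9 genes among R193H hearts, with a coefficient of variation of 2.04%, and Lpl least among wild type hearts, with 2.21%. Within the R193H group, Lpl, Cd36 and Fabp3 each put replicate 3 highest and replicate 2 lowest with TMM. By library totals Fabp3 was highest in R193H replicate 2 and Cd36 in R193H replicate 1.

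Angptl4 (chromosome 17, 33773750 to 33781830, minus strand) encodes a secreted inhibitor of lipoprotein lipase and is a well known PPAR target. It was the least abundant of the 9, at 43 to 91 counts per heart, and the heart with 43 counts carries a counting error of 15.2% on its own. Wild type replicates 1, 2 and 3 measured 3.76, 2.61 and 2.65 CPM and R193H replicates 3.46, 3.61 and 4.24 CPM. Wild type replicate 1, the lowest heart for 6 of the 9 genes, was the highest wild type heart for Angptl4 and lay above 2 of the 3 R193H hearts. Its log2 fold change was 0.33 (SE 0.22, interval -0.15 to 0.82, edgeR adjusted p = 0.900), and it was 0.52 without that heart.

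Plin5 (chromosome 17, 56111601 to 56117596, minus strand) encodes perilipin 5, a coat protein of lipid droplets in oxidative tissue that limits their breakdown and tethers them to mitochondria. It measured 59.5, 74.6 and 70.5 CPM in wild type replicates 1, 2 and 3, against 89.6, 88.8 and 75.7 CPM in the R193H replicates. The groups did not overlap, and wild type replicate 2 and R193H replicate 3 were close. The log2 fold change was 0.31 (SE 0.11, interval 0.077 to 0.55), with an edgeR adjusted p of 0.733 and position 284 of 14370 genes in order of p, the first among the 9. Its adjusted p was lowest without R193H replicate 3, at 0.292, and the log2 fold change was then 0.39.

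Pdk4 (chromosome 6, 5483351 to 5496309, minus strand) encodes the pyruvate dehydrogenase kinase that shuts carbohydrate out of the citric acid cycle when fatty acids are plentiful. It measured 117, 231 and 202 CPM in wild type replicates 1, 2 and 3, against 195, 213 and 276 CPM in the R193H replicates. The groups overlapped widely, and the lower wild type mean rested on replicate 1: without it the log2 fold change of 0.32 (SE 0.28, interval -0.37 to 0.999, edgeR adjusted p = 0.908) was 0.074. Without wild type replicate 2, the highest wild type heart, it was 0.51.

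Ucp3 (chromosome 7, 100472990 to 100486432, plus strand), an uncoupling protein family carrier of the inner mitochondrial membrane that follows fatty acid supply in muscle, measured 21.3, 41.3 and 29.9 CPM in wild type replicates 1, 2 and 3, against 42.5, 47.7 and 40.6 CPM in the R193H replicates. Only R193H replicate 3 lay below a wild type heart, replicate 2, while the wild type hearts spread widely, with a coefficient of variation of 32.6% against 8.37% in R193H hearts. For Ucp3, the log2 fold change was 0.50 (SE 0.22, interval -0.035 to 1.03, edgeR adjusted p = 0.866). It was 0.29 without wild type replicate 1 and 0.76 without wild type replicate 2, so single wild type hearts moved it more than 1.5 times.

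**Figure D3:**
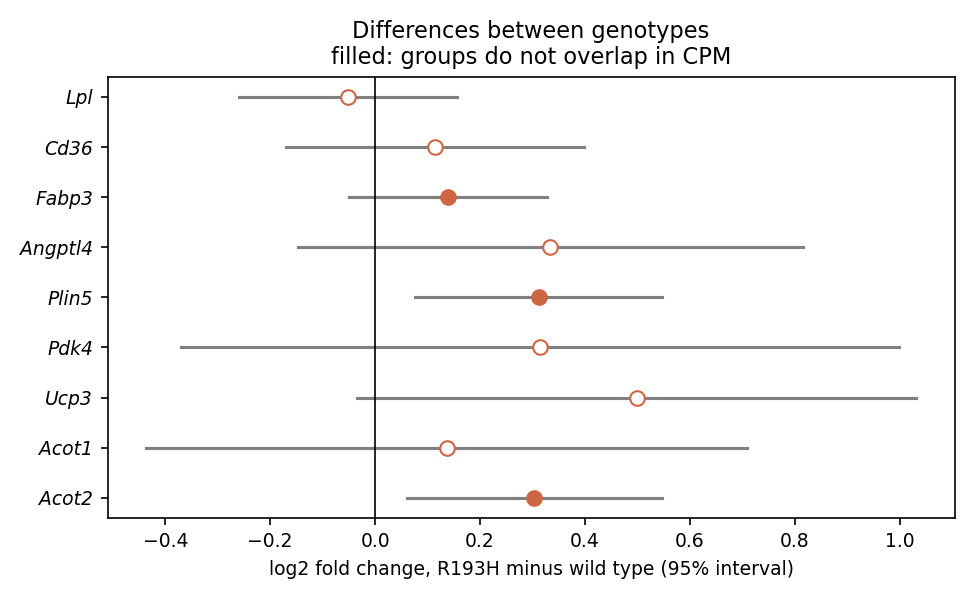
Log2 fold change (R193H minus wild type) of the 9 genes with the 95% interval of the edgeR fit, filled where the groups do not overlap in CPM. Intervals of Plin5 (0.077 to 0.55) and Acot2 (0.061 to 0.55) lie above 0 before adjustment for the number of genes tested, and those of the other 7 genes include 0.

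Acot1 and Acot2 lie side by side on GRCm38 chromosome 12 (84009490 to 84018371 and 83987861 to 83993873, both plus strand) and encode acyl-CoA thioesterases, which split fatty acyl-CoA into free fatty acid and coenzyme A. ACOT1 is cytosolic and ACOT2 mitochondrial. Their longest GENCODE M21 coding transcripts were 95.5% identical over 1235 aligned coding positions, with an identical run of 273 bases, so some reads can come from either. Of all 100-base windows of the Acot1 transcript, 16.5% were also in Acot2, and 17.1% of those of Acot2 were in Acot1. No source used here gives the read length or the handling of reads that match both genes. The coding bases of Acot2 that precede the part shared with Acot1 encode the start of the mitochondrial protein, and are shown because the aligned Acot1 coding sequence has no counterpart to them (coding bases 1 to 127, 5′ to 3′).
Acot2: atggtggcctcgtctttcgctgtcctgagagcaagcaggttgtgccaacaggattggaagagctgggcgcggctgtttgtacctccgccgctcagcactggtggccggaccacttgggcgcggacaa
The pair below is the aligned 120-base stretch with the most mismatches, with the 14 differing bases in capitals (coding bases 767 to 886 of Acot1 and 890 to 1009 of Acot2, 5′ to 3′). It shows a long identical part beside a part where short reads can be assigned.
Acot1: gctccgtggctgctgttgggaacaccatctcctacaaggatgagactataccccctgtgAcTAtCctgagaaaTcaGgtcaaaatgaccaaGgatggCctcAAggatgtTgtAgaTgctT
Acot2: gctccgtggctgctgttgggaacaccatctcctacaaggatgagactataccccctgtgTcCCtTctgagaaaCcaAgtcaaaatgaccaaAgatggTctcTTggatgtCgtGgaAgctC

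Acot2 measured 29.7, 37.6 and 34.5 CPM in wild type replicates 1, 2 and 3, against 38.6, 46.5 and 40.7 CPM in the R193H replicates. The groups did not overlap, with R193H replicate 1 close to wild type replicate 2. The log2 fold change was 0.30 (SE 0.11, interval 0.061 to 0.55, edgeR adjusted p = 0.752), position 370 of 14370 genes in order of p.

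Acot1 measured 5.25, 10.1 and 6.01 CPM in wild type replicates 1, 2 and 3, against 6.97, 9.65 and 6.85 CPM in the R193H replicates, from 74 to 211 counts. Replicate 2 was the highest heart in each group, as it was for Acot2 and Ucp3. These were also the hearts with the most Adipoq and Cfd, whose part in the levels of Acot1, Acot2 and Ucp3 was not tested. The Acot1 log2 fold change was 0.14 (SE 0.25, interval -0.44 to 0.71, edgeR adjusted p = 0.952). It turned to -0.035 without wild type replicate 1 and to -0.041 without R193H replicate 2, and it was 0.47 without wild type replicate 2. Acot1 took 14.9% to 21.1% of the 2 genes' summed counts in wild type hearts and 14.4% to 17.2% in R193H hearts. With both counts summed to 1 gene, which does not depend on how reads were split between them, the groups overlapped (35.0, 47.7 and 40.5 CPM against 45.5, 56.1 and 47.6 CPM). The log2 fold change of the sum was 0.28 (SE 0.12, edgeR adjusted p = 0.864).

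Among wild type hearts, Pdk4, Ucp3, Acot1, Acot2 and Plin5 shared 1 order, with replicate 2 highest and replicate 1 lowest. In R193H hearts that order was not shared. With TMM, replicate 2 was highest for Ucp3, Acot1 and Acot2, replicate 3 for Pdk4 and replicate 1 for Plin5. With library totals (log2 CPM of 6.63, against 6.51 in replicate 1) and with upper quartile scaling, R193H replicate 2 was highest for Plin5 too. The highest of all 6 hearts with TMM was R193H replicate 3 for 5 of the 9 genes (Lpl, Cd36, Fabp3, Angptl4 and Pdk4). By library totals Cd36 was highest in R193H replicate 1 and Fabp3 in R193H replicate 2. Wild type replicate 1 had the smallest library of the 6.

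The level of Pdk4 was compared with that of the other 8 genes over the 6 hearts on log2 CPM. Pearson's r with Ucp3 was 0.81 (exact permutation p = 0.0778, adjusted p = 0.252 over 8 relations) and Spearman's rho 0.31 (exact permutation p = 0.564, adjusted p = 0.878). For Fabp3, r was 0.76 (exact permutation p = 0.0903, adjusted p = 0.252) and rho 0.49 (exact permutation p = 0.356, adjusted p = 0.711), and for Acot2, r was 0.75 (exact permutation p = 0.0944, adjusted p = 0.252) and rho 0.60 (exact permutation p = 0.242, adjusted p = 0.711). None of the 8 relations passed in this two-sided test, and r with the remaining 5 genes ran from -0.074 for Angptl4 to 0.60 for Plin5. Wild type replicate 1 and R193H replicate 3 were the hearts farthest from the Pdk4 median. Over the 4 hearts left, r was 0.27 for Ucp3, 0.17 for Acot2 and -0.92 for Fabp3 (unadjusted exact permutation p = 0.792, 0.917 and 0.0833). Leaving out the extremes of Pdk4 narrows its range, which can lower r by itself, so this change is a description. As deviations from the mean of each genotype, r was 0.76 for Ucp3 (unadjusted permutation p = 0.0861). It was 0.70 for Fabp3 and 0.69 for Acot2 (unadjusted permutation p = 0.126 and 0.131). Pairings were permuted over all 6 hearts, though deviations within a genotype depend on each other, so these p-values are approximate.

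The genes outside the set whose log2 CPM was most like that of Pdk4, among 7606 genes with a mean of at least 10 CPM, were Fdx1l, Anxa7, Wdr91, Cggbp1 and Fam120aos, with Pearson's r of 0.97, 0.97, 0.97, 0.96 and 0.96 over 6 hearts. They were picked as the highest of many, and Fam120aos is an antisense gene whose reads cannot be told from its partner's without strand.

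RefSeq promoter windows on GRCm38.p6 matched 7 of the 9 genes by symbol, all but Lpl and Angptl4, in 8 windows. The full direct repeat, 2 half-sites AGGTCA in the same direction with 1 base of any kind between them, was searched on both strands. Over the 250 bases before the start it was in 0 of these 8 windows, against 0.0335% of 32851 windows of the same length. At so low a share, 0 in 8 cannot tell these genes from others. The half-site AGGTCA alone (both strands), which the full repeat contains, was in 3 of the 8 (Cd36, Plin5 and Ucp3), against 14% of all windows. Plin5 has 2 windows, and the half-site was in 1 of them. The Cd36 window, chr5:17835897-17836146, lies inside the Cd36 span given above. The windows of Acot1, Acot2, Fabp3 and Pdk4 held none. A window with the half-site (Ucp3) and one without it (Acot2) are shown, chosen after their values were seen, with the matches in capitals 149 and 44 bases before the Ucp3 start. They are chr7:100472741-100472990 and chr12:83987611-83987860, both on the plus strand and printed 5′ to 3′.
Ucp3: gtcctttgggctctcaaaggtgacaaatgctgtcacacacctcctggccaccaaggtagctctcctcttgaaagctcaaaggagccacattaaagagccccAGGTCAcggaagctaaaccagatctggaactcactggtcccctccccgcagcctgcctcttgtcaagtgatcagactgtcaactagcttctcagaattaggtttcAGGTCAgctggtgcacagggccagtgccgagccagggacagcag
Acot2: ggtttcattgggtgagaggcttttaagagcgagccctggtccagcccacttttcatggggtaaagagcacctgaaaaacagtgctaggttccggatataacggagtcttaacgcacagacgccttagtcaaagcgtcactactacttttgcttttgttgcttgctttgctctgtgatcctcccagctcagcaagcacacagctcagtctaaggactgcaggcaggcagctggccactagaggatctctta
A match is a run of letters, not a bound site, and binding of a factor was not measured here.

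Other genes of the pathways were read from 9 lists, chosen with earlier results of these hearts known, of which 138 of 152 distinct genes were tested. The edgeR fit called 0 of the 138, and DESeq2 also called 0. Scaling by library totals put the median of all genes at 0.13 instead of -0.00036, and each list's median under it is given second. With each heart left out in turn, the medians ranged from 0.0082 (without R193H replicate 2) to 0.13 (without R193H replicate 3) for uptake and activation and from 0.0042 to 0.19 (the same hearts) for the lipase partners. Of the uptake and activation genes, 12 of 17 had higher means in R193H hearts (median log2 fold change 0.071, or 0.20 by library totals), and 1 had an unadjusted p under 0.05. That was Acsl6, an acyl-CoA synthetase, at -0.49 (SE 0.21), and the next were the aspartate aminotransferase Got2 at -0.20 (SE 0.099), the lipoprotein receptor Vldlr at -0.24 (SE 0.15) and Acsl3 at 0.57 (SE 0.43). The lipase partners had 4 of 6 higher means (median 0.099, or 0.23 by library totals), with 0 at an unadjusted p under 0.05. The proprotein convertase genes Pcsk6 and Pcsk5 stood at -0.16 (SE 0.15) and 0.29 (SE 0.30).

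Lipid droplet genes gave no common direction, with 10 of 23 higher means and a median of -0.029 (0.10 by library totals, and -0.089 without wild type replicate 1 to 0.095 without wild type replicate 2), and 2 passed an unadjusted p under 0.05 in opposite directions. Dgat1, which makes triglyceride, measured 11.1, 10.1 and 11.5 CPM in wild type replicates 1, 2 and 3, against 8.54, 8.23 and 9.27 CPM in the R193H replicates, with no overlap (log2 fold change -0.33, SE 0.12, edgeR adjusted p = 0.781). Lipe, the hormone-sensitive lipase, stood at 0.31 (SE 0.13). Plin4, another droplet coat protein, stood at -0.24 (SE 0.12) and Gpam, the first enzyme of glycerolipid synthesis, at 0.22 (SE 0.11). The droplet coat gene Plin2, a PPAR target named outside the naming rule for comparison with Plin5, stood at 0.096 (SE 0.079) with groups that only just did not overlap.

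The other 27 PPAR targets tested had 12 higher and 15 lower means and a median of -0.016 (0.12 by library totals, and -0.049 without R193H replicate 3 to 0.026 without R193H replicate 1). Acadm, the medium-chain acyl-CoA dehydrogenase, measured 1077, 1235 and 1256 CPM in wild type replicates 1, 2 and 3, against 1029, 891 and 1024 CPM in the R193H replicates, with no overlap (log2 fold change -0.28, SE 0.097, edgeR adjusted p = 0.746). Slc22a5, the carnitine transporter, separated the other way, at 18.5, 21.4 and 19.2 CPM against 23.7, 23.8 and 22.9 CPM (log2 fold change 0.25, SE 0.092, edgeR adjusted p = 0.768). Creg1 and the malonyl-CoA decarboxylase Mlycd stood at 0.22 (SE 0.13) and 0.13 (SE 0.10).

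Partners of Pdk4 had 9 of 10 lower means (median -0.084, or 0.037 by library totals, and -0.13 without wild type replicate 3 to -0.046 without R193H replicate 2), with 1 at an unadjusted p under 0.05, Pdpr, a regulator of the opposing phosphatase, at -0.22 (SE 0.089). Pdk2, another kinase of the complex, stood at -0.21 (SE 0.12), and the complex subunits Pdha1 and Pdhb at -0.13 (SE 0.084) and -0.087 (SE 0.091). Other acyl-CoA thioesterases had 5 of 8 lower means (median -0.045, or 0.079 by library totals, and -0.097 without R193H replicate 2 to 0.024 without wild type replicate 2), led in order of p by Acot11 (-0.14, SE 0.13), Them4 (0.13, SE 0.15), Acot7 (-0.081, SE 0.1003) and Acot8 (-0.13, SE 0.19).

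The receptors and coactivators that drive these targets had 16 of 19 lower means (median -0.10, or 0.024 by library totals), and 5 had groups that did not overlap with R193H lower (Ppara, Ppargc1a, Ncoa2, Ncor1 and Rxrb), against 5.8% of all genes. Ppara, the main PPAR of heart muscle, measured 89.1, 106 and 93.0 CPM in wild type replicates 1, 2 and 3, against 87.1, 69.9 and 69.2 CPM in the R193H replicates (log2 fold change -0.35, SE 0.11, edgeR adjusted p = 0.722). Ppargc1a, which encodes the coactivator PGC-1alpha, measured 118, 128 and 134 CPM against 103, 77.2 and 115 CPM (log2 fold change -0.36, SE 0.14, edgeR adjusted p = 0.793). Ppara and Ppargc1a had lower means where Plin5 and Acot2 had higher ones, and none of these 4 passed the threshold. The coactivator Ncoa2 stood at -0.17 (SE 0.079) and the corepressor Ncor1 at -0.16 (SE 0.084).

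Fasting is known to raise Pdk4, Ucp3 and Angptl4, and stress hormones Pdk4 and Angptl4. Feeding state and time of collection are not stated for the 6 mice, and genes that follow them were read for that reason. Genes of the glucocorticoid and fasting response had 11 of 15 lower means (median -0.10, or 0.024 by library totals, 0.064 without R193H replicate 2 and -0.26 without R193H replicate 1), with Foxo3 at -0.21 (SE 0.088), Foxo1 at -0.10 (SE 0.082), Cdkn1a at 0.42 (SE 0.37) and Irs2 at -0.62 (SE 0.56). Clock genes had 11 of 15 lower means (median -0.075, or 0.057 by library totals, -0.15 without R193H replicate 1 and -0.0094 without R193H replicate 2), with Tef at -0.43 (SE 0.20), Per2 at -0.46 (SE 0.20) and Bhlhe40 at -0.21 (SE 0.12). Groups of Tef and Per2 did not overlap. Of the clock genes tested, 4 had higher means, up to a log2 fold change of 0.41 for Nr1d1 (SE 0.24). Arntl and Npas2 were removed by the filter on low counts. The part of the fasting, glucocorticoid and clock responses in the levels of the 9 genes was not tested.

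**Figure D4:**
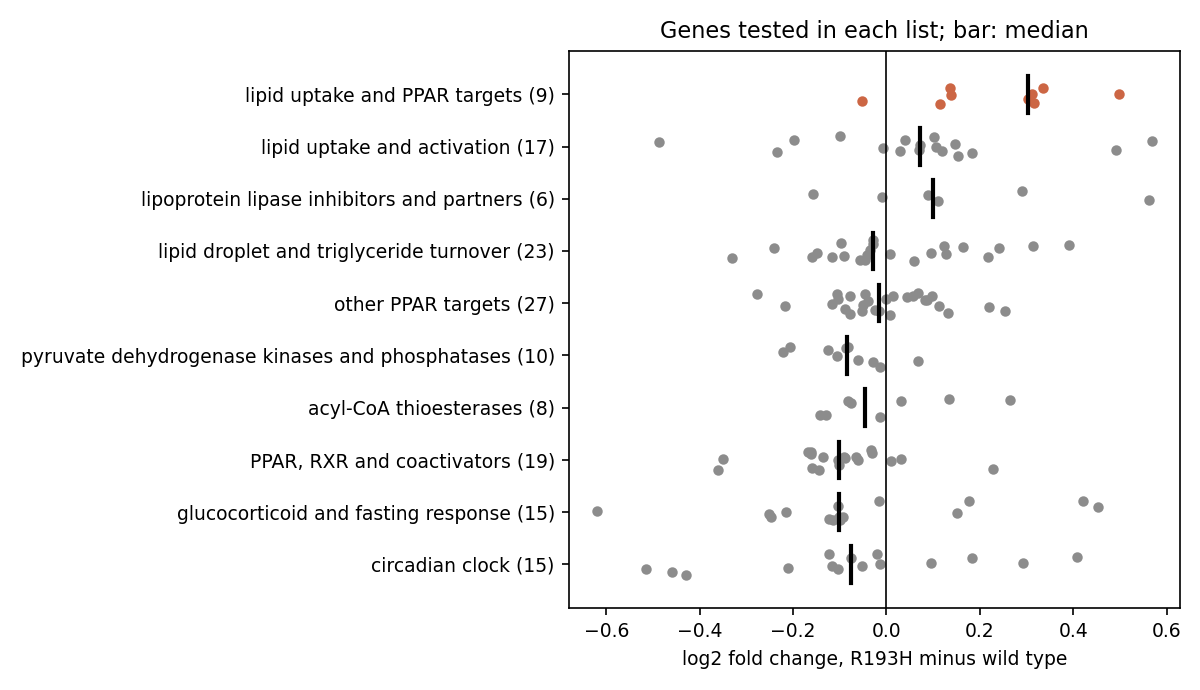
Log2 fold change (R193H minus wild type) of every gene tested in each list, with the number tested in brackets, each point 1 gene and the black bar the median. The 9 lipid uptake and PPAR target genes (orange) have a median of 0.30 and the 9 other lists (grey) medians of -0.10 to 0.099, and under scaling by library totals all 9 of those medians are above 0.

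The median log2 fold change of the 9 genes was 0.30 with TMM. By library totals it was 0.44, where the median of all genes was 0.13. By library totals 4 of the 9 had an unadjusted edgeR p under 0.05, and the share of all genes at that p was taken with TMM only. With TMM the median of the 9 was 0.089 without wild type replicate 1, and 0.23 to 0.38 with each other heart left out. As a share of all counts the 9 genes took 0.678% to 0.746% in wild type hearts and 0.771% to 0.817% in R193H hearts, without overlap. Their summed CPM after TMM did overlap, at 7085 to 7714 and 6905 to 8165 CPM, and Lpl made up most of that sum. Mitochondrially encoded genes took 36.7% to 36.8% of counts in wild type hearts and 30.9% to 35.4% in R193H hearts, lowest in R193H replicate 2. With those genes left out before scaling, the median of the 9 genes was 0.30.

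**Figure D5:**
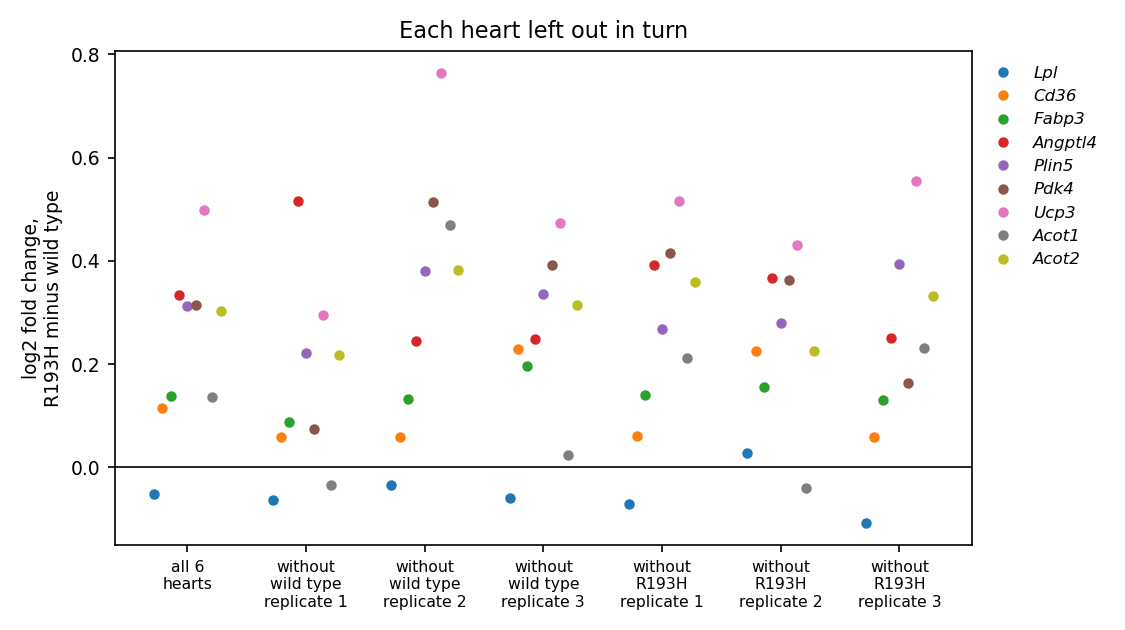
Log2 fold change (R193H minus wild type) of the 9 genes with all 6 hearts and with each heart left out in turn, each point 1 gene under 1 setting. Ucp3 spans 0.29 to 0.76, Pdk4 0.074 to 0.51 and Acot1 -0.041 to 0.47, while Fabp3 stays between 0.089 and 0.20 and Lpl between -0.11 and 0.027.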

How the data were processed

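RNA from 6 mouse hearts was extracted with Trizol and made into Illumina libraries, per the labels' protocols. The authors deposited 1 table of raw read counts per gene symbol, with 1 column per heart. The submitters' processing notes name HISAT2 2.0.4 and GRCm38, and no source used here gives the counting program, annotation, strand or treatment of multi-mapping reads.

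In R 4.3.3, the 14370 of 44792 genes that passed filterByExpr of edgeR 4.0.16 were scaled by TMM and compared between genotypes by its robust quasi-likelihood test, with Benjamini-Hochberg adjustment over all 14370 and a threshold of 0.05. The biological coefficient of variation was 15.8%. Log2 CPM used a prior count of 2. No 2 hearts agreed within sampling noise (chi-square per degree of freedom of 13.6 or more), and the submitters describe biological repeats. With 3 hearts against 3, an exact permutation cannot go below 0.1. The 9 genes, the lists and the naming rule were chosen with earlier results of these data known. The rule named the 9 genes, up to 4 genes of each list by smallest p and the 5 genes most like Pdk4 at a mean of at least 10 CPM, without predicted genes or pseudogenes, and genes named beyond it illustrate a count or marker list. Some genes the rule picks are not reported here. Of 240 listed symbols, 4 were matched through older symbols. Coordinates and coding sequences came from GENCODE M21 (GRCm38) and promoters from RefSeq (GRCm38.p6), and Biopython 1.88 aligned sequences. Tests were tried on simulated data first. Alternatives were other scalings and filters, DESeq2 1.42.0, limma-voom (limma 3.58.1), no mitochondrial genes, a log2 fold change beyond 0.5, and hearts left out one by one.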

Additional observations from a re-analysis of the deposited data

How the results depend on the processing

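No paired analysis was possible because the labels give no replicate numbers, and the numbers used here only name hearts. None of the 9 genes passed the threshold under any of the 16 alternatives, where their lowest adjusted p was 0.292 (Plin5 without R193H replicate 3), and 0 of the 138 other pathway genes tested did in any of them. Over the 9 genes and 16 alternatives, 140 of 144 values kept their direction. The exceptions were Lpl and Acot1: Lpl was 0.070 under library totals and ranged from -0.11 to 0.027 with each heart left out, and Acot1 from -0.041 to 0.47. Among other named genes, library totals turned Pdhb (0.035), Acot7 (0.048), Acot8 (0.0064) and Foxo1 (0.024), and leaving out a heart gave ranges of -0.23 to 0.023 for Acot11, -0.15 to 0.026 for Acot7 and -0.00076 to 0.18 for Angptl2. Genes called numbered 1 with all hearts and TMM, 0 without mitochondrial genes, 38 with no filter, 42 with DESeq2, 0 with a minimum log2 fold change of 0.5, and 3 to 21 with each heart left out. Of the 9 genes, 2 had an unadjusted p under 0.05, and 4 under library totals, 0 with a minimum log2 fold change and 0 to 3 with each heart left out (0 when wild type replicate 1 was omitted, 1 when R193H replicate 1 or replicate 2 was). Groups that did not overlap numbered 3, and 2 with no filter on low counts and 4 under library totals. With each heart left out they numbered 3 to 5, 5 without wild type replicate 2. Shares of all genes without overlap, or at an unadjusted p under 0.05, were not taken under these alternatives. Library totals moved the median of all genes to 0.13, and groups of fewer hearts separate more easily, so these counts are a description. The summed Acot1 and Acot2 log2 fold change ranged from 0.17 to 0.40. Pearson's r of Pdk4 with Angptl4 was 0.13 under library totals, and without the 2 hearts farthest from the Pdk4 median r was -0.86 for Cd36, -0.92 for Fabp3 and -0.32 for Plin5. Apart from settings with fewer samples or genes, the cause was not tested. Counting error limits Angptl4 (43 to 91 counts) and Acot1 (74 to 211 counts) most.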
